A study of Mus musculus with 6 samples.

Results

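Platelet-derived growth factor (PDGF) ligands, their receptors and the common markers of pericytes were followed in the mesenchyme of the mouse incisor. The set held 10 genes, picked by symbol from the 23718 genes of the table: the ligands Pdgfa, Pdgfb, Pdgfc and Pdgfd, the receptors Pdgfra and Pdgfrb, and the pericyte markers Rgs5, Cspg4, Abcc9 and Kcnj8. All 10 were listed, and all 10 reached the level required for testing, a mean value of at least 1 over the 6 libraries.

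PDGF ligands are secreted dimers that bind receptor tyrosine kinases and drive migration and division of mesenchymal cells. PDGF-A and PDGF-C act mainly through the receptor PDGFRA, whereas PDGF-B and PDGF-D act through PDGFRB. Endothelial cells of growing vessels release PDGF-B, which draws in pericytes, the PDGFRB-bearing mural cells that wrap capillaries. In developing teeth, PDGF-A is known from the epithelium and PDGFRA from the mesenchyme beneath it. Pericytes have also been discussed as a source of mesenchymal stem cells in the incisor, which grows throughout life.

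The mesenchymal stem cell (MSC) group held 3 libraries from the Gli1+ region of Gli1-CreER;tdT mice. The transit amplifying cell (TAC) group, the dividing progeny of the stem cells, held 3 libraries from the Axin2+ region of Axin2-CreER;tdT mice. Mice of both groups were labelled C57BL/6, while the methods of the study speak of a mixed background. They were 1 month old, carried the red fluorescent reporter and had received tamoxifen 1 day earlier. The regions were cut from frozen sections by laser capture microdissection, so a library holds the RNA of a piece of tissue with its vessels and not of sorted cells. In such samples, fewer cells of a type and less RNA per cell cannot be told apart, and the driver line cannot be told apart from the region. Gli1 was 308 ± 98.9 (SD, n = 3) for MSC against 230 ± 144 (SD, n = 3) for TAC, and Axin2 was 39.4 ± 24.3 (SD, n = 3) and 51.6 ± 15.6 (SD, n = 3), and both genes overlapped between the groups. Gli1 was higher in MSC in each same-numbered pair, at 256, 245 and 422 against 153, 141 and 396. Axin2 was higher in TAC in pairs 2 and 3, at 63.9 and 34.1 against 48.0 and 12.01, and not in pair 1, at 56.8 against 58.3. The numbers do not tell replicate 1 from replicate 2, and with these crossed Axin2 was higher in TAC in each pair. Mki67, a gene of dividing cells, was higher in TAC in each pair, at 593, 630.0 and 122 against 137, 130.1 and 41.5.

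Values are in the normalized unit of the deposited table, where reads were scaled library by library. A gene is given in the order of replicates 1, 2 and 3, and its log2 difference is the log2 fold change, TAC minus MSC. Values can be compared between libraries but not between genes. Estimated reads per library ran from 20203159 to 108156380. Replicate 3 of both groups stood apart from replicates 1 and 2. Mitochondrial ribosomal RNA took 8.28% to 9.07% of the reads in replicates 1 and 2 and 0.112% to 0.236% in replicate 3, and 28.3% to 43.1% of genes had no read in replicate 3 against 6.89% to 8.36% in the others. Differences of the 10 genes are therefore also given within replicates 1 and 2 and within replicate 3, where a group has 1 library and no test is possible.

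The 10 genes leaned toward MSC. In 6 of the 10, every MSC library lay above every TAC library, which held for 12.2% of all genes tested, and 0 of the 10 had every TAC library higher, against 12.3% of all genes. The log2 fold change (TAC minus MSC) was negative in both library sets for 7 of the 10, against 31.2% of all genes. In limma, 1 of the 10 passed an adjusted p of 0.05, against a background of 0.422% of 15391 genes, and that gene was Rgs5. At an unadjusted p under 0.05 there were 3, Rgs5, Cspg4 and Pdgfrb, all higher in MSC, where 6.43% of all genes were both. With the replicate number as a block, 2 passed, Rgs5 and Cspg4, and the background was 1.49%. The median log2 fold change of the 10 was -0.83, against 0.03 over all genes.

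**Figure D1:**
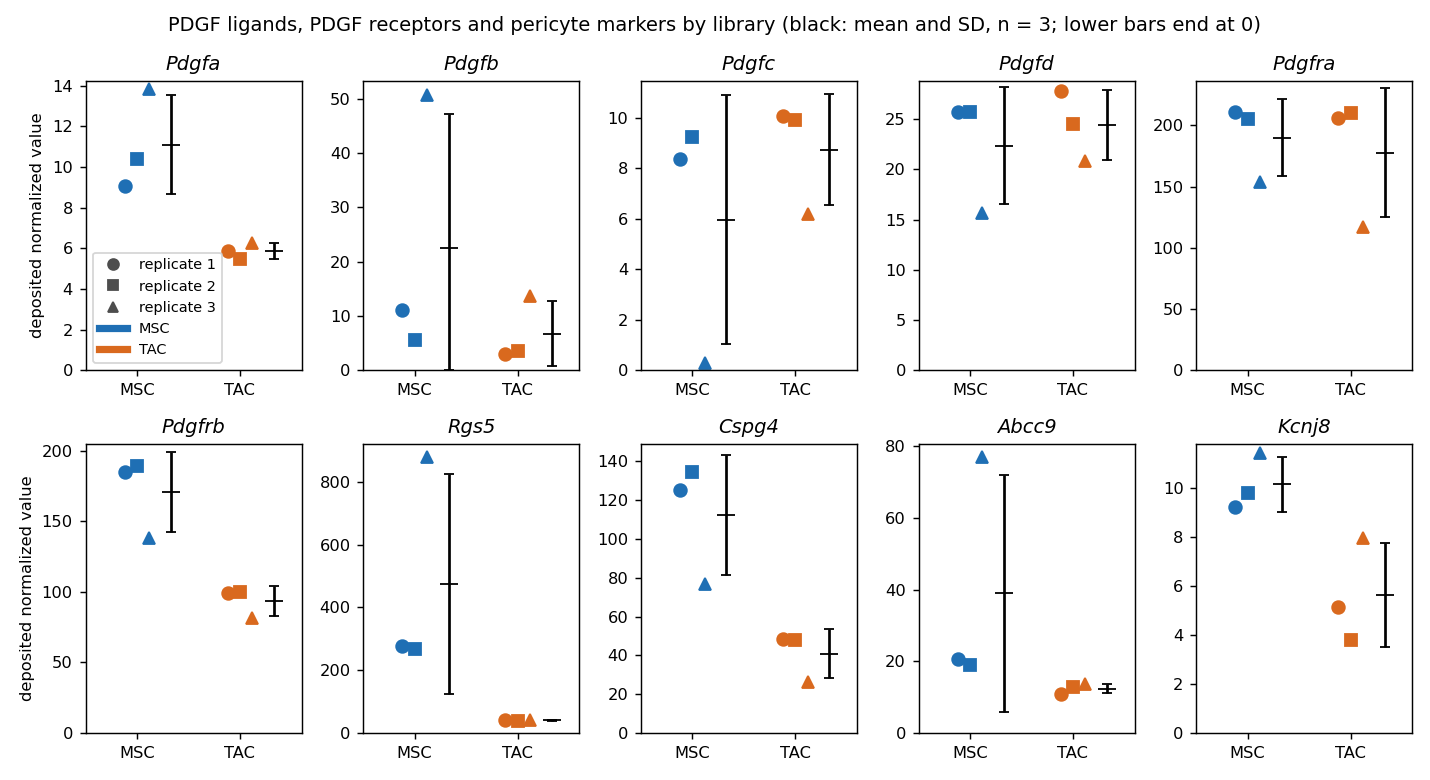
Deposited normalized value (vertical axes, each from 0) of each of the 10 genes in the 3 MSC and 3 TAC libraries, with the mean and SD in black. Rgs5, Cspg4, Abcc9, Kcnj8, Pdgfa and Pdgfrb have no TAC library at the level of an MSC library, while Pdgfra and Pdgfd overlap and Pdgfc is lowest in MSC replicate 3, at 0.293.

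The pericyte markers held the largest difference of the set. Rgs5 (chromosome 1, 169655501 to 169695813, plus strand) encodes a brake on G protein signaling and is among the most used pericyte markers. Its value was 276, 268 and 880.0 across MSC against 40.3, 38.6 and 42.2 across TAC. The TAC libraries lay within a narrow band and the lowest MSC library was far above it, while MSC replicate 3 stood above the other MSC libraries. The MSC mean of 475 ± 351 (SD, n = 3) was 11.8 times the TAC mean of 40.4 ± 1.82 (SD, n = 3). Rgs5 fell in TAC by 3.29 on the log2 scale (SE 0.48, limma adjusted p 0.0491), with a 95% interval from -4.42 to -2.16. Replicates 1 and 2 alone gave -2.75 and replicate 3 gave -4.35, a gap with an adjusted p of 1.5e-05. Its adjusted p was 0.222 without MSC replicate 1, 0.219 without MSC replicate 2, 0.228 without TAC replicate 1, 0.239 without TAC replicate 2 and 0.141 without TAC replicate 3, but 0.0204 without MSC replicate 3. The direction held in each of these fits.

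Cspg4 (chromosome 9, 56865033 to 56899870, plus strand) encodes the proteoglycan NG2, found on pericytes, smooth muscle and glial precursors. It was 125, 135 and 77.0 across MSC against 48.5, 47.9 and 26.2 across TAC. Replicate 3 was the lowest library of each group, yet the groups did not overlap. Its log2 difference came to -1.45 (SE 0.36, adjusted p 0.179), or -1.41 within replicates 1 and 2 alone and -1.52 within replicate 3. With the replicate block, the SE was 0.14 and the adjusted p 0.0442.

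Abcc9 and Kcnj8 encode the parts of an ATP-sensitive potassium channel of vascular cells, the regulatory SUR2 subunit and the pore Kir6.1. The genes are neighbours on the minus strand of chromosome 6, Kcnj8 at 142564837 to 142571614 and Abcc9 at 142587862 to 142702315, with 16247 bases and no annotated gene between them. Abcc9 was 20.7, 19.0 and 77.2 across MSC against 10.99, 12.7 and 13.5 across TAC. Kcnj8 was 9.25, 9.79 and 11.4 in MSC and 5.15, 3.79 and 7.98 in TAC. Both had every MSC library above every TAC library, but MSC replicate 3 stood far above the other MSC libraries for Abcc9 alone of the pair. For Abcc9 the log2 difference came to -1.28 (SE 0.55, adjusted p 0.427), -0.64 without MSC replicate 3, or -0.70 within replicates 1 and 2 alone and -2.43 within replicate 3 (adjusted p of that difference 0.00031). For Kcnj8 it came to -0.79 (SE 0.44, adjusted p 0.546), with -0.96 and -0.47. The ratio of Abcc9 to Kcnj8 within a library ran from 1.94 to 6.76 in MSC and from 1.70 to 3.35 in TAC, so the groups overlapped.

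The other channel genes of this kind, Kcnj11 and Abcc8, were not listed. Of the 9 other RGS proteins of the R4 family, to which Rgs5 belongs, 6 were listed and 4 tested, and limma called 0 of them at the adjusted threshold, 2 toward MSC at an unadjusted p under 0.05 (6.43% of all genes), and 0 in voom at the adjusted threshold. Rgs3 was 74.4 ± 11.3 (SD, n = 3) for MSC against 35.5 ± 0.512 (SD, n = 3) for TAC, a log2 difference of -1.04 (SE 0.25, adjusted p 0.166). Rgs16 had a log2 difference of -1.79 (SE 0.55, adjusted p 0.259).

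Start site sequences are shown for the 4 pericyte markers, whose groups did not overlap, and for Pdgfc, the only printed window with a CArG box, the site of serum response factor. They are RefSeq windows of 300 bases on GRCm38.p6, the assembly of mm10, from 250 bases before the start, in the direction of transcription. RefSeq windows were matched for 8 of the 10 genes, all but Pdgfb and Pdgfrb. The windows are chr1:169655251-169655550 (plus strand) for Rgs5, chr9:56864854-56865153 (plus strand) for Cspg4, chr6:142702225-142702524 (minus strand) for Abcc9, chr6:142571565-142571864 (minus strand) for Kcnj8 and chr3:81036166-81036465 (plus strand) for Pdgfc. Capitals mark matches, on either strand, to the RBPJ core of Notch signaling, whose letters are TGGGAA. They also mark the GC box, whose letters are GGGCGG. The TATA box, searched as TATAAA, the core of forkhead factors, searched as TAAACA, and the CArG box were marked in the same way, and no matches overlapped.
Rgs5: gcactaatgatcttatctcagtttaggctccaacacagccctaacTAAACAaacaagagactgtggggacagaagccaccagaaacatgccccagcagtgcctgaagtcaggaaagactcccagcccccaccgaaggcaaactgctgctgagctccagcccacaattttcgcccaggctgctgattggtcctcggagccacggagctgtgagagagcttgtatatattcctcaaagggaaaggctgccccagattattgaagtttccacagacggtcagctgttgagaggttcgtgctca
Cspg4: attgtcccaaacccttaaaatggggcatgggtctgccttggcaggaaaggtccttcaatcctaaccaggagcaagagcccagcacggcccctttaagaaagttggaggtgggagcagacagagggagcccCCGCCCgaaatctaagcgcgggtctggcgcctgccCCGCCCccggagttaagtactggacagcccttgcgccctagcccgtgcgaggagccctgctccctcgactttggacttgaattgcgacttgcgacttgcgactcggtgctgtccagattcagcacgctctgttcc
Abcc9: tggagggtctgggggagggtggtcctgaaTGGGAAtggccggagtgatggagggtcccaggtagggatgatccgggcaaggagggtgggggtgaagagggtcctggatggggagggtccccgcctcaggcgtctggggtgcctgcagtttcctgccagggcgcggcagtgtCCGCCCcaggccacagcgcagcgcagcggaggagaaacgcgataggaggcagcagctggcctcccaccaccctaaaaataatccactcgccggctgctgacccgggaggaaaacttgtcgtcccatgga
Kcnj8: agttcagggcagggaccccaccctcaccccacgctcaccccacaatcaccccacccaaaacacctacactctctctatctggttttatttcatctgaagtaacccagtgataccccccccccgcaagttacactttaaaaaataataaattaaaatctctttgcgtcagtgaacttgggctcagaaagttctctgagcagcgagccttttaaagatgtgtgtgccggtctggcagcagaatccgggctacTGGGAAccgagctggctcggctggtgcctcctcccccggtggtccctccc
Pdgfc: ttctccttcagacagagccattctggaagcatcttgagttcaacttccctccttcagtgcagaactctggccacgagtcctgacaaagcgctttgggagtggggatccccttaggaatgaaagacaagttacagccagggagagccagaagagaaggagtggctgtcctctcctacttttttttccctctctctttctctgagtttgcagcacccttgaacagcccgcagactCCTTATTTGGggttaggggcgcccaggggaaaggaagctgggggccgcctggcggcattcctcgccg
Among 32544 distinct RefSeq windows of this length, 25.4% held the RBPJ core, 35.9% a GC box, 13.6% a TATA box, 13.4% a forkhead core and 1.64% a CArG box. No motif was common to all 4 pericyte windows, and 0 of the printed windows held a TATA box. Rgs5 held 1 forkhead core at -205 from the start, Cspg4 held 2 GC boxes, Abcc9 held 1 RBPJ core at -221 and 1 GC box at -79, and Kcnj8 held 1 RBPJ core that began at the first transcribed base. Bases G and C made up 52.3%, 60.0%, 65.7% and 53.3% of these windows. The CArG box of Pdgfc began at -17. A match is a run of letters and not a measured site.

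Of the receptors, Pdgfrb had groups that did not overlap and Pdgfra had groups that did. Pdgfrb (chromosome 18, 61045150 to 61085061, plus strand), which marks mural cells and many fibroblasts, stood at 185, 189 and 138 across MSC against 99.3, 100.2 and 81.6 across TAC. Every MSC library was above every TAC library, and replicate 3 was the lowest of each group. The MSC mean was 171 ± 28.3 (SD, n = 3) and the TAC mean 93.7 ± 10.5 (SD, n = 3), a ratio of 1.82. Its log2 difference came to -0.85 (SE 0.27, adjusted p 0.280), near the same in both library sets at -0.90 and -0.75. The replicate block lowered its SE to 0.12, with an adjusted p of 0.0556. Pdgfrb passed in 2 of 17 alternatives, with the library set as a term (adjusted p 0.00595) and in replicates 1 and 2 only (adjusted p 1.533e-06). Those limma fits called 1814 and 6796 of the 15391 genes tested. Leaving out single libraries gave log2 differences of -0.996 to -0.756, with limma adjusted p-values of 0.0771 to 0.739.

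Pdgfra (chromosome 5, 75152292 to 75198215, plus strand), the receptor of dental mesenchyme, was 211, 205 and 154 across MSC against 206, 210.0 and 117 across TAC. The groups overlapped, and replicates 1 and 2 of the groups were nearly equal. The log2 difference came to -0.13 (SE 0.34, adjusted p 0.933), with a 95% interval from -0.94 to 0.67 that covers a change in either direction. Replicates 1 and 2 alone gave 0.0013 and replicate 3 gave -0.40, a gap with an adjusted p of 0.00229. Without TAC replicate 3 it was 0.14.

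The balance of the receptors within a library does not depend on the scaling between libraries. The ratio of Pdgfrb to Pdgfra was 0.878, 0.922 and 0.897 across MSC against 0.481, 0.477 and 0.699 across TAC. MSC libraries agreed closely, and TAC replicate 3 lay between them and the other TAC libraries. The means were 0.899 ± 0.0223 (SD, n = 3) and 0.553 ± 0.127 (SD, n = 3). With 3 libraries against 3, an exact permutation test cannot go below a two-sided p of 0.1, so such ratios are given without a test. They were chosen after the values had been seen.

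**Figure D2:**
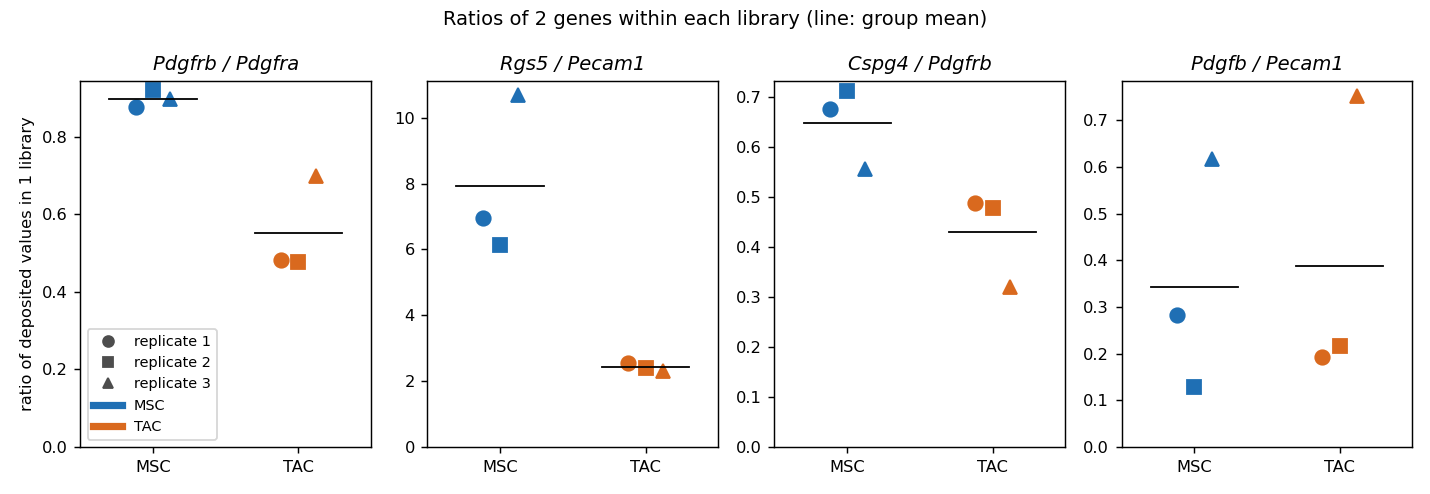
Ratio of the deposited values of a pair of genes within each library (vertical axes, each from 0), with the group mean as a line. The ratios of Pdgfrb to Pdgfra, Rgs5 to Pecam1 and Cspg4 to Pdgfrb are higher in each MSC library than in any TAC library, and the ratio of Pdgfb to Pecam1 overlaps, with replicate 3 highest in both groups.

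Rgs5 and Cspg4 were higher in every MSC library also when taken per unit of Pdgfrb. The ratio of Rgs5 to Pdgfrb ran from 1.42 to 6.37 in MSC and from 0.385 to 0.517 in TAC. That of Cspg4 to Pdgfrb ran from 0.557 to 0.713 in MSC and from 0.321 to 0.488 in TAC. Pecam1 is a defining gene of endothelium, the layer that pericytes wrap. The ratio of Rgs5 to Pecam1 was 6.97, 6.14 and 10.7 across MSC against 2.56, 2.39 and 2.32 across TAC. Over the 15 endothelial genes taken in turn as the denominator, the ratio was higher in every MSC library for 11 and overlapped for 4. Those 4 were Cldn5, Erg, Sox17 and Vwf, and per unit of Vwf each TAC value was above the MSC value of the same number, with 3.03, 2.79 and 42.8 across MSC against 6.40, 9.30 and 47.6 across TAC. Per unit of Myl9, a myosin light chain of smooth muscle, the groups overlapped, with 7.48, 6.84 and 7.40 across MSC against 7.55, 7.31 and 2.87 across TAC. Per unit of Acta2, a smooth muscle actin, Rgs5 was lower in MSC, at 3.31 to 3.65 against 8.90 and 12.1 in TAC replicates 1 and 2.

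Among the ligands, 0 of 4 passed the adjusted threshold in limma, with the block or in voom, and the counts at an unadjusted p under 0.05 were 0, 1 and 2, the last split between the directions. Unadjusted shares of all genes were 6.43% toward MSC and 5.42% toward TAC in limma, and in either direction 20.4% with the block and 23.2% in voom. Pdgfa (chromosome 5, 138976014 to 138997370, minus strand), the epithelial ligand for PDGFRA, was 9.07, 10.4 and 13.8 across MSC against 5.85, 5.49 and 6.24 across TAC. The groups did not overlap, with a log2 difference of -0.80 (SE 0.40, adjusted p 0.497) that stood at -0.68 within replicates 1 and 2 alone and -1.03 within replicate 3. Of 8 dental epithelial genes 0 passed the adjusted threshold in limma or in voom and 1 unadjusted in limma toward TAC, while Krt14, Krt5, Cdh1 and Epcam had every TAC library above every MSC library, which held for 12.3% of all genes. The summed level of the 8 was 299.7 to 3658 in MSC and 2149 to 3338 in TAC, lowest in MSC replicate 3 and highest in MSC replicates 1 and 2.

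Pdgfb (chromosome 15, 79995874 to 80014977, minus strand), the endothelial ligand, was 11.2, 5.65 and 50.7 across MSC against 3.04, 3.50 and 13.7 across TAC. Replicate 3 was the highest of each group, and TAC replicate 3 exceeded MSC replicates 1 and 2. Each MSC value was above the TAC value of the same number, by 3.67, 1.61 and 3.71 times. Its log2 difference came to -1.32 (SE 0.87, adjusted p 0.613), -0.48 without MSC replicate 3, or -1.08 within replicates 1 and 2 alone and -1.82 within replicate 3. Per unit of Pecam1 the difference was not seen, since the ratio of Pdgfb to Pecam1 was 0.343 ± 0.249 (SD, n = 3) for MSC against 0.388 ± 0.317 (SD, n = 3) for TAC and the groups overlapped.

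The ligands with a CUB domain, which must be cut by a protease before they act, had log2 differences above 0 and groups that overlapped. They were not tested against the other ligands. Pdgfc (chromosome 3, 81036416 to 81214040, plus strand) stood at 8.36, 9.25 and 0.293 across MSC against 10.1, 9.94 and 6.21 across TAC. Its MSC replicate 3 value rests on 43 estimated reads, where the other libraries had 313 or more. A log2 difference of 0.94 (SE 0.85, adjusted p 0.723) became -0.035 without that library, and it was 0.17 within replicates 1 and 2 alone and 2.48 within replicate 3 (adjusted p of the gap 0.000621). Pdgfd (chromosome 9, 6168584 to 6378850, plus strand) stood at 25.7, 25.7 and 15.7 across MSC against 27.8, 24.6 and 20.8 across TAC. The groups overlapped, with a log2 difference of 0.14 (SE 0.33, adjusted p 0.919) and a 95% interval from -0.62 to 0.91, and it was -0.082 without MSC replicate 3.

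**Figure D3:**
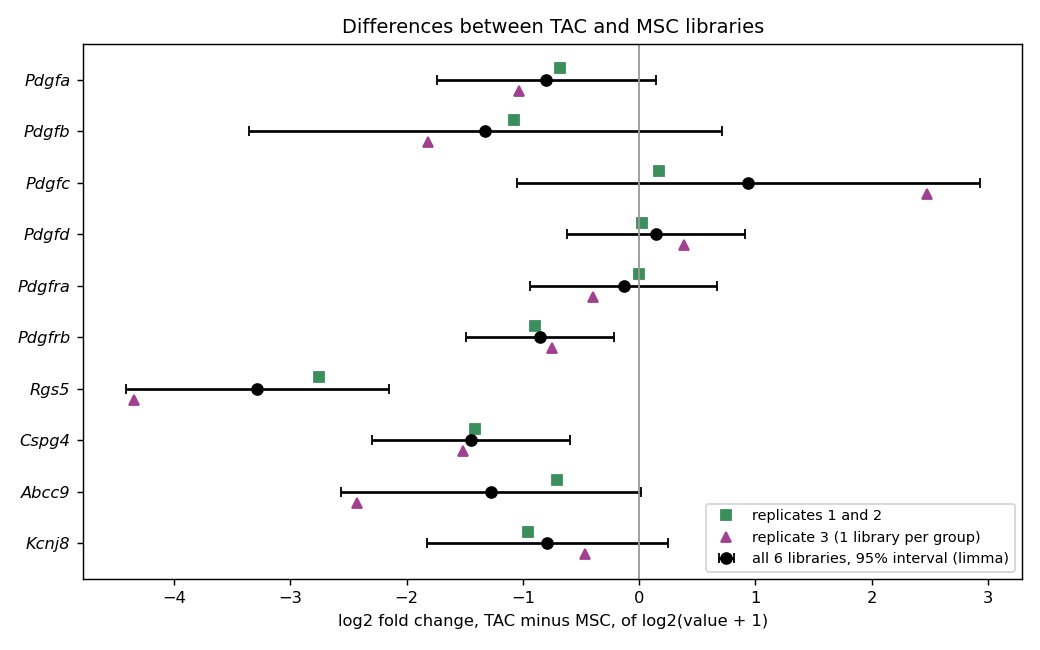
Log2 fold change (TAC minus MSC, horizontal axis) of log2(value + 1) for each of the 10 genes, with the 95% interval from limma over all 6 libraries and the values within replicates 1 and 2 (squares) and within replicate 3 (triangles). The intervals of Rgs5, Cspg4 and Pdgfrb lie below 0, and the library sets are farthest apart for Pdgfc, Abcc9 and Rgs5.

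Between the library sets, 4 of the 10 genes had a difference in fold change past the adjusted threshold, Pdgfc, Pdgfra, Rgs5 and Abcc9, against 57.2% of all genes tested. That test sets 1 library per group against the small spread between replicates 1 and 2 and assumes that replicate 3 would vary as little.

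Levels were ordered by dividing each value by the union of the exons of coding transcripts in GENCODE M21, in kilobases. Per kilobase, Rgs5 was the most abundant of the 10 in MSC at 104 ± 77.2 (SD, n = 3), followed by Pdgfrb at 31.2 ± 5.16 (SD, n = 3), Pdgfra at 19.97 ± 3.29 (SD, n = 3) and Cspg4 at 13.8 ± 3.81 (SD, n = 3). Per kilobase in TAC, Pdgfra at 18.7 ± 5.55 (SD, n = 3) and Pdgfrb at 17.1 ± 1.92 (SD, n = 3) did not differ beyond their spread, and Rgs5 came next at 8.88 ± 0.400 (SD, n = 3). Divided by the longest coding transcript in place of the union, Pdgfra was at 26.0 and Pdgfrb at 17.3 per kilobase in TAC, a wider gap in the same order. Pdgfd was the highest ligand per kilobase in TAC at 7.73 ± 1.11 (SD, n = 3), and there Pdgfa, Pdgfb and Pdgfc lay between 1.99 and 2.48 per kilobase and overlapped. Per kilobase in MSC, Pdgfb at 7.37 ± 8.05 (SD, n = 3) and Pdgfd at 7.09 ± 1.84 (SD, n = 3) did not differ beyond their spread. The Pdgfb mean rested on MSC replicate 3, at 16.6. In MSC replicates 1 and 2 Pdgfb was 3.651 and 1.848 and Pdgfd 8.145 and 8.158.

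Genes that work with the PDGF receptors were read from 4 lists: proteases that free the latent ligands, co-receptors and binding proteins, adaptors and effectors of the receptors, and brakes. All 35 were tested and 0 passed the adjusted threshold in either direction, in limma with or without the block or in voom. At an unadjusted p under 0.05 there were 5 with the block, 3 in voom and 1 in limma without the block, against 20.4%, 23.2% and, toward MSC, 6.43% of all genes. The last was Gab1, a docking protein for SHP2 and PI3 kinase. Gab1 was 55.8 ± 2.14 (SD, n = 3) for MSC against 28.3 ± 10.2 (SD, n = 3) for TAC, with a log2 difference of -1.03 (SE 0.34, adjusted p 0.302) and no overlap. The median log2 fold change of the 35 was -0.24, and it became 0.07 without MSC replicate 1.

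Of the 6 proteases, only St14 had groups that did not overlap. St14 encodes matriptase, which can cut PDGF-D, and it was 4.20 ± 1.57 (SD, n = 3) for MSC against 8.46 ± 3.76 (SD, n = 3) for TAC (log2 fold change 0.84, SE 0.51, adjusted p 0.588). Among the 20 adaptors and effectors, 4 had every MSC library higher and 2 every TAC library, against shares over all genes of 12.2% and 12.3%. Beside Gab1 these were Fyn, Shc1 and Plcg1 at -0.49, -0.44 and -0.38, and Grb10 and Pik3ca at 0.52 and 0.26, with adjusted p-values of 0.519 to 0.748. Of the 5 brakes, Cblb had a log2 fold change of -1.42 (adjusted p 0.563) that came mostly from TAC replicate 3, with -0.31 in replicates 1 and 2 and -3.64 in replicate 3. Among 12 immediate early genes that serum or PDGF can induce, 11 were tested, 0 passed the adjusted threshold in limma or voom and 2 passed unadjusted in limma, both toward MSC (6.43% of all genes). Those were Dusp1, a phosphatase of MAP kinases, at -2.04 (SE 0.55, adjusted p 0.191), and Egr1 at -1.10 (SE 0.42, adjusted p 0.370).

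The VEGF ligands and the receptor kinases closest to the PDGF family gave 0 of 11 past the adjusted threshold in limma or voom and 4 unadjusted in limma, 3 toward MSC and 1 toward TAC, against 6.43% and 5.42% of all genes. Flt4, the receptor of lymphatic endothelium, was 26.4 ± 5.01 (SD, n = 3) for MSC against 8.48 ± 1.81 (SD, n = 3) for TAC, a log2 difference of -1.53 (SE 0.35, adjusted p 0.148). Pgf, a ligand for FLT1, had -1.47 (adjusted p 0.316). Vegfd went toward TAC at 1.69 (SE 0.61, adjusted p 0.342).

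Some other genes of mural cells fell in TAC beside Rgs5. Of 24 other mural and pericyte genes 23 were listed and 20 tested, and 16 of the 20 had a negative log2 fold change. At the adjusted threshold 3 fell in TAC and 0 rose, with 11 and 1 unadjusted. In 12 every MSC library lay above every TAC library, and in 1 every TAC library lay above every MSC library. Over all genes 0.422% passed the adjusted threshold. Unadjusted shares were 6.43% toward MSC and 5.42% toward TAC, and shares without overlap were 12.2% and 12.3%. Notch3, the Notch receptor of mural cells, was 107 ± 18.7 (SD, n = 3) for MSC against 22.9 ± 4.67 (SD, n = 3) for TAC, a fall of 2.18 on the log2 scale (log2 fold change -2.18, SE 0.29, adjusted p 0.0389). Angpt1, the pericyte ligand for the endothelial receptor TIE2, was 22.01 ± 0.766 (SD, n = 3) and 2.02 ± 0.370 (SD, n = 3), at -2.94 (SE 0.40, adjusted p 0.0408). Ebf1, a transcription factor of several mesenchymal and blood lineages, was 23.4 ± 2.76 (SD, n = 3) and 1.95 ± 0.919 (SD, n = 3), at -3.09 (SE 0.45, adjusted p 0.0468). With the replicate block 5 passed (1.49% of all genes), voom called 0 (10 toward MSC and 1 toward TAC unadjusted), and 0 passed without MSC replicate 1, MSC replicate 2 or any single TAC replicate. Not every marker of the list went this way. Des, Higd1b and Tbx18 fell short of the level for testing, Vtn was not listed, and S1pr3, Cd248 and Anpep had log2 fold changes of 0.06, 0.19 and -0.23.

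Genes of smooth muscle, the contractile mural cells of larger vessels, had a list median of -2.65, against -1.54 for the mural list. Of 12 tested, 4 fell in TAC and 0 rose, against 0.422% of all genes called. Mylk, the kinase that starts smooth muscle contraction, was 368 ± 120.0 (SD, n = 3) for MSC against 18.7 ± 1.18 (SD, n = 3) for TAC, at -4.17 (SE 0.33, adjusted p 0.00876). Tagln, Myh11 and Acta2 were the others. With the replicate block 6 passed (1.49% of all genes), but Acta2 did not (adjusted p 0.0701). The ratio of Rgs5 to Acta2 was 3.38, 3.65 and 3.31 in the MSC replicates, so Acta2, like Rgs5, was highest in MSC replicate 3. In TAC replicates 1 and 2 the ratio was higher, at 8.90 and 12.1, and TAC replicate 3 held 2 estimated reads of Acta2, too few for a ratio. Voom called 1 of these 12 genes (0.149% of all genes), and 0 passed without replicate 1 or replicate 2 of either group.

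Markers of endothelium and smooth muscle had summed levels that were higher in every MSC library, as the pericyte markers did. The summed level of 15 endothelial genes was 441 to 551 in MSC and 185 to 197 in TAC, that of the 12 smooth muscle genes 930 to 1039 and 95.4 to 140.1, and that of the 4 pericyte markers 431 to 1046 and 89.9 to 105. In 12 of the 15 endothelial genes every MSC library lay above every TAC library, and 0 passed in limma or voom, 3 with the replicate block and 9 unadjusted, against 12.2%, 0.422%, 1.49% and 6.43% of all genes in limma. Kdr did not follow, at 0.0015. The part of vessel content in the differences of the 10 genes was not tested. Among 6 tested genes of Schwann cells, which like pericytes can express Cspg4, 2 had every MSC library higher (12.2% of all genes). At the adjusted threshold 0 passed in limma or voom. Unadjusted, 1 passed in limma (6.43% of all genes toward MSC) and 3 in voom (23.2% in either direction), all toward MSC. The summed level of that list was 48.5 to 64.8 in MSC and 34.2 to 36.6 in TAC, and Olig1 and Olig2, which define the oligodendrocyte lineage, were not listed.

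**Figure D4:**
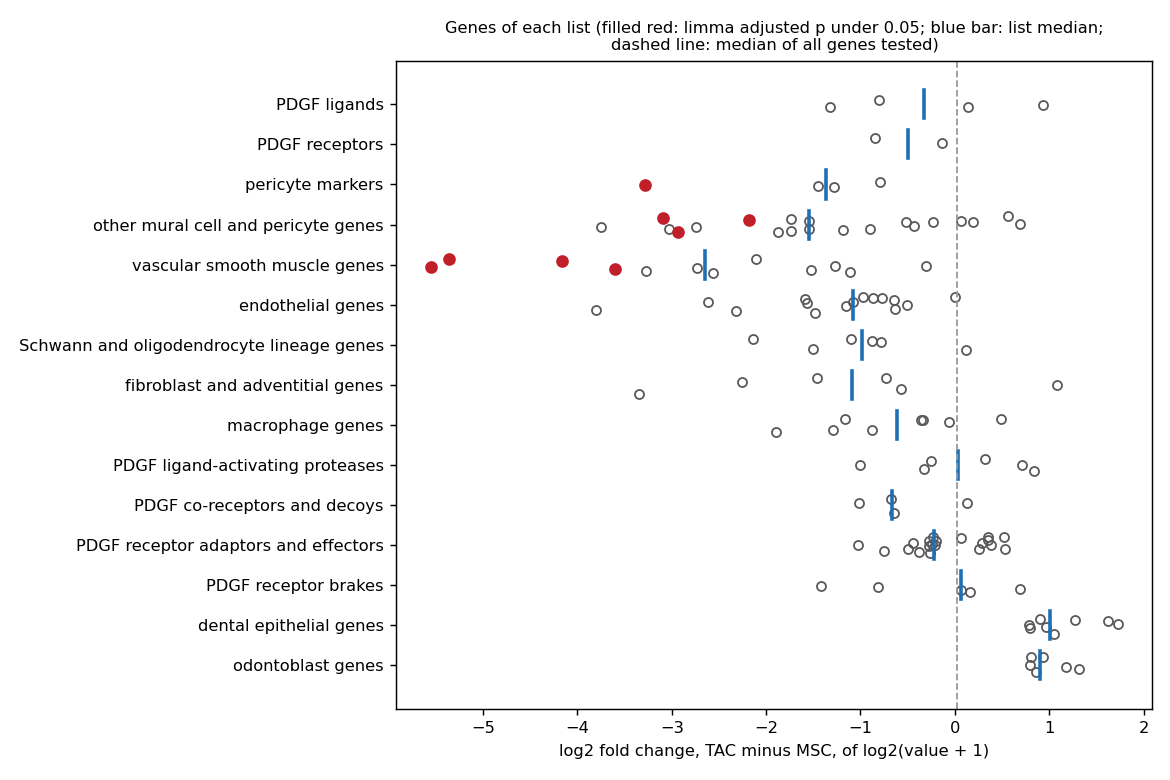
Log2 fold change (TAC minus MSC, horizontal axis) of log2(value + 1) for the tested genes of each list, with the list median in blue and genes with a limma adjusted p under 0.05 in red. The medians of the 4 pericyte markers (-1.36), the mural list (-1.54), the smooth muscle list (-2.65) and the endothelial list (-1.08) lie to the left of the median of all genes at 0.03, while the receptor adaptors and effectors spread on both sides.

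Of fibroblast and adventitial genes 6 were tested and 0 passed in limma or voom, with 2 toward MSC and 1 toward TAC unadjusted in limma, against 6.43% and 5.42% of all genes. The latter was Dcn, which encodes decorin, a matrix proteoglycan, at 36.7 ± 4.96 (SD, n = 3) for MSC against 82.1 ± 31.4 (SD, n = 3) for TAC (log2 difference 1.09, SE 0.33, adjusted p 0.254). Ly6a was 3.17, 3.48 and 90.9 in the MSC replicates, so MSC replicate 3, the library highest in Rgs5, Abcc9 and Pdgfb, was also the highest in this marker. The summed level of the list was 174 to 342 in MSC and 162 to 184 in TAC. Of 8 macrophage genes 0 passed in limma or voom and 2 unadjusted in limma toward MSC, with summed levels of 99.4 to 207 and 53.0 to 108. Of 3 tested platelet genes 0 passed in limma or voom, 1 unadjusted toward TAC in limma and 1 toward MSC in voom, with summed levels of 8.66 to 15.2 and 10.9 to 63.3. Of 6 odontoblast genes 0 passed in limma with or without the block or in voom (0, 0 and 1 unadjusted), and their summed level was 2317 in MSC replicate 3 and 12462 to 15876 in the other libraries.

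The genes whose levels ran most alike over the 6 libraries were sought among 8184 others with a mean of at least 10, by the root mean square difference of log2 levels centred on each gene's own mean. Among the nearest to Pdgfrb were Timp2 and Shank3, with differences of 0.06 and 0.08. For Pdgfra the nearest were Trim44, Nrf1 and Ext2, with 0.04, 0.05 and 0.06. Among the nearest to Rgs5 were Thbd and Snhg11, with 0.16 and 0.23. Thbd, which encodes the thrombin receptor thrombomodulin of endothelium, was 34.2, 38.8 and 107 across MSC against 5.47, 5.23 and 6.14 across TAC.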

How the data were processed

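RNA was sequenced from laser-captured incisor mesenchyme, 3 MSC and 3 TAC libraries, with 3 mice per group by the study's methods. Reads were trimmed by the authors and aligned to mm10 with TopHat (TopHat2 2.0.8; CASAVA 1.8.2 and Partek are also named in the submitters' notes) and described the values as RPKM. The deposited values were read here as a normalized signal, because low values stepped by the lowest value of the library whatever the gene's length. Estimated reads are the value over that lowest value, minus 1. Of reads between 0.5 and 20, 66.9% to 76.4% per library came out within 0.05 of a whole number, so no count model was the main test. How reads were counted, and whether by strand, was not given in the sources used here.

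Values were taken as log2(value + 1), and limma 3.58.1 in R 4.3.3 was fitted, with a variance trend, to 15391 genes, those whose mean reached 1. The test was two-sided, TAC minus MSC, with Benjamini-Hochberg adjustment over all genes tested. The planned test had assumed RPKM and suits this unit too. Changes of genes with low values come out too small with this pseudocount. Recovery was tested on simulated data with even noise below the median spread of the genes tested and no library set difference. That setting is easier than the real libraries, so it does not show how many changes are found here. The 10 genes and the lists were chosen with earlier results of these data known. All 10 genes are named. From other lists, genes past the adjusted threshold are named, or else up to 4 without overlap and with the largest change, and a few more were named after their values were seen. Deviations of same-numbered libraries from their group means correlated at 0.477, 0.465 and 0.517 across genes, so replicate numbers were taken as pairs, but crossing replicates 1 and 2 gave 0.462 and 0.480, so the numbers set replicate 3 apart and do not tell replicate 1 from replicate 2. Coordinates and lengths are from GENCODE M21 (mm10), where 9 of the 10 genes had the deposited start and end once the end was lowered by 1, and Pdgfb did not. Some genes that the naming rule selects are not reported here. Alternatives are under the closing section.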

Additional observations from a re-analysis of the deposited data

Results flagged for a closer look

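The change from MSC to TAC in replicate 3 was set against that in replicates 1 and 2 with limma, and 4 of the 10 genes passed, against 57.2% of all genes tested. Replicate 3 has 1 library per group, so the test assumes that it varies as little as replicates 1 and 2 did. The log2 fold change in replicate 3 minus that in replicates 1 and 2 was 2.31 for Pdgfc, -0.40 for Pdgfra, -1.59 for Rgs5 and -1.73 for Abcc9. For Pdgfc, Rgs5 and Abcc9 the sets had the same direction. In MSC, replicate 3 was 3.24 times the mean of replicates 1 and 2 for Rgs5, 3.89 times for Abcc9 and 0.0333 times for Pdgfc, while in TAC it was 1.07, 1.14 and 0.621 times. The cause of these differences was not tested.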

How the results depend on the processing

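The number of genes called was 65 over all genes and 1 of the 10 members, and both depended on the fit. Over all genes it was 38 with a pseudocount of 0.1, 114 with quantile normalization, 29 without the variance trend, 23 with voom on estimated reads, 229 with the replicate block, 1814 with the library set as a term and 6796 in replicates 1 and 2 only. Leaving out single libraries gave 0 to 292, with 0 for replicate 1 or replicate 2 of either group (1028 to 1367 unadjusted), 292 without MSC replicate 3 and 36 without TAC replicate 3. Of the 10 members 0 were called with a pseudocount of 0.1, no filter on low values, a mean of at least 10 (7 tested), median-ratio scaling, quantile normalization, no variance trend or voom (3, 4, 3, 3, 3, 3 and 5 unadjusted). There were 2 with the replicate block, 3 with the library set as a term (Rgs5, Cspg4 and Pdgfrb) and 7 in replicates 1 and 2 only, where the error is the small spread between replicates 1 and 2. Leaving out single libraries gave 0 to 1 (3 or 4 unadjusted where 0). Rgs5 kept its direction in 17 of 17 alternatives with a test and its call in 5, and its adjusted p ran from 8.672e-09 to 0.239. Pdgfra reversed to 0.0013 in replicates 1 and 2 only and to 0.14 without TAC replicate 3, and without MSC replicate 3 Pdgfc reversed to -0.035 and Pdgfd to -0.082. The replicate block changed no call of a member other than Cspg4. Leaving out single libraries moved Pdgfb from -1.96 to -0.48, Abcc9 from -1.63 to -0.64, Pdgfc from -0.035 to 1.46, Pdgfd from -0.082 to 0.26 and Pdgfra from -0.28 to 0.14. For Pdgfc, voom gave 3.71 (adjusted p 0.127) and a pseudocount of 0.1 gave 1.46. The 4 members that differed between the library sets became 3 to 5 under 11 alternatives chosen after seeing the data. The cause of these shifts was not tested. Members had 43 estimated reads or more in each library, so relative counting error is largest for Pdgfc in MSC replicate 3. That library was not shallow, with 59793645 estimated reads.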

Other observations

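Of the 10 genes, 6 overlap another annotated gene, and 5 of the overlapping genes were listed, all on the opposite strand. Ddi1, which lies within Pdgfd, had 635 to 919 estimated reads in replicates 1 and 2 of both groups and 0 in replicate 3 of both groups. The same held for Gm16000 within Pdgfc, at 64 to 118 and 0 reads, and for Gm42802 and Gm42803 within Pdgfra, at 14 to 77 and 62 to 110 against 0 and 0. The antisense gene 6330403L08Rik, which overlaps Pdgfa, was read in all 6 libraries, with 193 in MSC replicate 3 and 1510 in TAC replicate 3. Without a stated use of strand, reads of these pairs cannot be told apart.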
